A study of Mus musculus with 7 samples.

Results

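The single array of mIMCD-3 cells was set against the 4 arrays of embryonic ureteric bud, which makes 5 of the 7 arrays of the series. mIMCD-3 is a line of epithelial cells that came from collecting duct of the inner medulla, established from mice that carry the SV40 early region. The array held total RNA of a freshly isolated subclone, thus of 1 clone, grown to confluency in DMEM, a standard culture medium. The bud arrays held microdissected tissue of E12.5 mouse kidneys: 2 biological replicates of ureteric bud tips and 2 of ureteric bud stalks. No mutation or treatment is given for any group. The 2 arrays of metanephric mesenchyme, the tissue around the bud, serve as a level for non-epithelial kidney tissue. With 1 array of the line there is no replicate error for mIMCD-3 and no test, so values are described by size and by their place outside the range of the 4 bud arrays. The tissue arrays had been published earlier and the mIMCD-3 array was added later, so the cell line, its culture and its own array cannot be told apart.

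The ureteric bud is an epithelial tube that grows out of the nephric duct and branches inside the metanephric mesenchyme. Its tips answer to the ligand GDNF through the receptor Ret and its partner Gfra1 and keep dividing and branching, whereas its stalks lengthen and later become collecting ducts and ureter. In the adult, collecting duct principal cells take up sodium and water under aldosterone and vasopressin, and intercalated cells handle acid and base. The inner medulla is hypertonic, and its cells hold organic osmolytes and heat shock proteins against salt and urea.

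All values are log2 of the linear intensity, so 1 unit is a 2-fold difference, and each gene is read from 1 probe set. A gene was called higher (or lower) in mIMCD-3 when it stood at least 1 log2 unit above the highest (or below the lowest) of the 4 bud arrays. The distance to that nearest bud array is termed the gap. By this rule 1235 of 18193 genes (6.79%) were called higher and 1133 (6.23%) lower, together 13.0%. The shares of 6.79% and 6.23% are the scale for every count of called list members below. Without the 1 unit margin, 33.0% of all genes stood above every bud array and 37.1% below every bud array. The median difference of mIMCD-3 from the bud mean was -0.05 over all genes. Of all calls, 52.2% were higher, and this share was 62.3% when each array was centred on its own median, which shifted the median gene by 0.17. When each bud array was set against the other 3 by this rule, 0 to 5 genes stood above and 0 to 16 below. The other 3 always held its own replicate, and mIMCD-3 has none, so these counts give no scale for the mIMCD-3 calls. mIMCD-3 lay farther from every bud array than the bud arrays from each other. Its correlation across genes was 0.888 with each stalk array and 0.907 and 0.900 with the tip arrays, where pairs of bud arrays had 0.968 to 0.997. Genes are not independent replicates. Of the genes called higher, 1161 were also at least 1 unit above both mesenchyme arrays, and of those called lower, 929 were also at least 1 unit below both.

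The largest gaps upward belonged to single genes of varied function. Cryab, the small heat shock protein alpha B-crystallin, stood at 12.87 in mIMCD-3, 4.51 and 4.43 in stalk, and 3.96 and 4.25 in tip. Another Cryab probe set gave 11.81 against a bud maximum of 4.16, and the remaining one was dim on all 5 arrays, at 2.91 in mIMCD-3 and 2.90 to 3.47 in the bud. Ifit3, an interferon-induced antiviral protein, had 11.53 in mIMCD-3, 4.83 and 4.77 in stalk, and 4.77 and 5.02 in tip. Scel, encoding sciellin of stratified epithelia, stood at 11.18 against 4.27 to 4.67, and Ankrd1, a target of YAP in stretched or spread cells, at 11.05 against 4.46 to 4.99. These genes were dim in all 4 bud arrays and bright in mIMCD-3. Ptgs2, the inducible cyclooxygenase, was at 9.5 in mIMCD-3 against 3.28 to 3.62 in the bud. The chemokine gene Ppbp followed with 11.13 against 4.13 to 5.25, the stress-induced chromatin protein gene Nupr1 with 9.94 against 4.07 to 4.61, and the matrix protease gene Adamts5 with 11.03 against 5.60 to 5.81.

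The deepest gaps downward were likewise spread over genes of varied function. Hbb-y, an embryonic globin gene of red cells, stood at 3.03 in mIMCD-3, 13.75 and 13.72 in stalk, and 12.97 and 13.05 in tip. Calb1, the calcium-binding calbindin used as a marker of the bud and its derivatives, had 3.38 in mIMCD-3, 12.54 and 12.53 in stalk, and 13.68 and 13.62 in tip, a gap of 9.15 units. The actin-bundling gene Fscn1 was at 4.06 in mIMCD-3 against 12.75 to 12.87 in the bud, at like brightness in tip, stalk and mesenchyme. Mgst1, a microsomal glutathione transferase, had 3.25 against 11.28 to 11.54, the nuclear factor gene Tox3 3.05 against 10.48 to 10.92, the growth factor genes Ptn and Mdk 3.32 against 10.57 to 11.33 and 6.37 against 13.12 to 13.29, and the chemokine-scavenging receptor gene Ackr3 3.60 against 10.30 to 10.98. Mdk kept a value above the median probe set of the mIMCD-3 array (5.40), and the others named here fell under it. Across all genes 124 stood at least 4 units below the bud and 38 at least 4 above it.

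**Figure D1:**
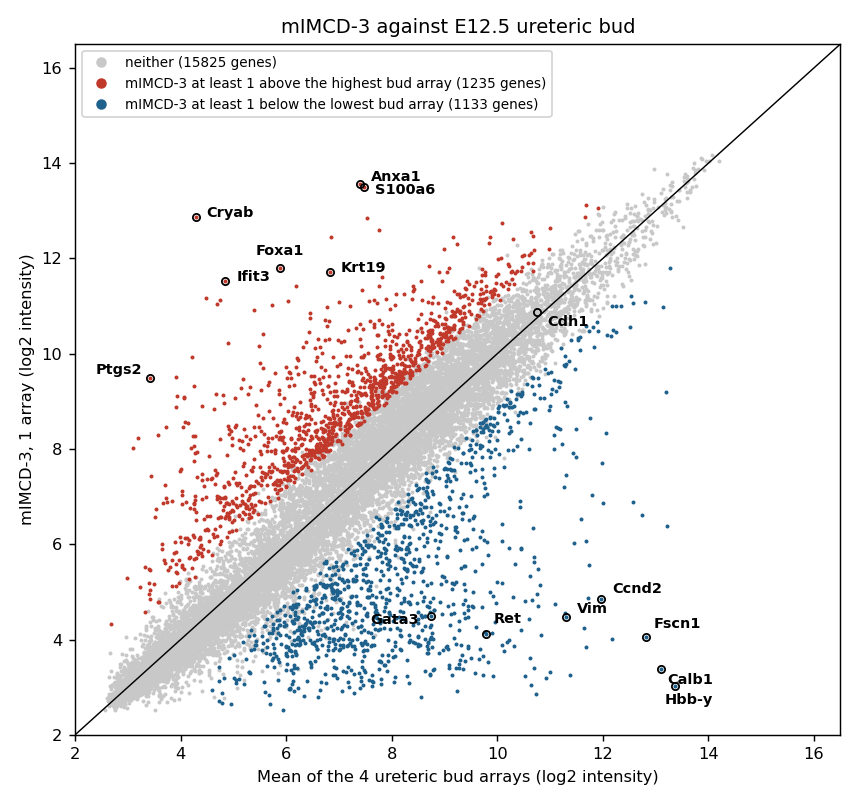
Each point is a gene, with the mean log2 intensity of the 4 ureteric bud arrays on the x axis and the log2 intensity of the single mIMCD-3 array on the y axis; the line marks equal values. The 1235 genes called higher and the 1133 called lower are coloured, and circles mark genes named in the text, with Cryab (12.87) far above and Calb1 (3.38) far below the line.

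mIMCD-3 carried the epithelial label of its line. Cdh1, the adhesion molecule E-cadherin, stood at 10.88 in mIMCD-3, 10.45 and 10.49 in stalk, and 11.09 and 10.97 in tip, while mesenchyme was at 4.0 and 3.68. The line thus lay inside the bud range. Keratins of simple epithelia were at or above the bud, with Krt8 at 12.31 against 11.48 to 11.90 and Krt18 at 12.01 against 11.16 to 11.62. Epcam, an epithelial adhesion molecule, was at 10.79 in mIMCD-3, 11.45 and 11.41 in stalk, and 12.52 and 12.29 in tip, below every bud array by 0.62 units, which is short of a call. Krt7 and Krt19, keratins of mature ducts and urothelium, were called higher. Krt7 had 11.52 in mIMCD-3, 8.98 and 8.98 in stalk, and 9.13 and 8.72 in tip. Krt19 stood 4.66 units above its highest bud array, at 11.72 in mIMCD-3 against 6.57 to 7.06 in the bud. The desmosomal tetraspan gene Perp had 9.15 against 4.44 to 5.06, and the plakin gene Ppl 9.42 against 6.97 to 7.43. In the list of adherens junction, desmosome and keratin genes, 7 of 31 measured members were called higher and 3 lower, with a median difference of 0.37. The 3 lower ones were Nectin3, an adhesion molecule at 4.14 against 9.5 to 10.33, the keratin gene Krt23 at 4.57 against 5.78 to 8.26, and Cdh16, the kidney cadherin, at 9.42 against 10.99 to 11.23.

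Tight junction and polarity genes were, like most genes, mostly not called. The lower calls fell on claudins, the proteins that set which ions cross between cells. Of 40 measured members 2 were called higher and 5 lower, against 6.79% and 6.23% of all genes, and 33 were not called. Against the 2 stalk arrays alone the count turned, to 14 higher and 6 lower. All 5 lower members were claudins. Cldn6, a claudin of embryonic epithelia, stood at 4.74 in mIMCD-3, 10.54 and 10.72 in stalk, and 11.63 and 11.45 in tip. Cldn8, which in collecting duct seals the path between cells, was at 6.54 in mIMCD-3, 11.56 and 11.59 in stalk, and 11.67 and 11.56 in tip, and mesenchyme at 5.25 and 5.06. For Cldn6 the line was below the mesenchyme, and for Cldn8 between mesenchyme and bud. Cldn9 had 3.95 against 8.25 to 9.19 and Cldn4 9.41 against 10.84 to 11.50. Cldn5, a claudin of endothelium, had 5.59 against 7.07 to 8.59 and was brighter in stalk than in tip. Cldn7, another duct claudin, stood within the bud range at 10.73 against 10.17 to 11.15. The scaffold gene Tjp1 was not called at 11.02 against 10.27 to 10.37, and the sealing protein gene Ocln was 0.77 units below the bud at 8.47 against 9.23 to 10.12. The members called higher were Prkci, the atypical protein kinase of apical polarity, at 11.71 against 9.67 to 9.91, and Mal, an apical sorting protein, at 11.06 against 8.66 to 9.63.

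Among 20 regulators of the epithelial state, 11 stood above and 6 below every bud array, against 33.0% and 37.1% of all genes. Grhl2, a transcription factor that maintains Cdh1 and claudin expression, stood at 10.30 in mIMCD-3, 8.66 and 8.66 in stalk, and 9.92 and 9.64 in tip, above every bud array by 0.38 and not called, though 2 of its 4 probe sets had the opposite sign. Its relative Grhl3 had 5.58 against 3.76 to 4.12. The splicing factor genes Esrp1 and Esrp2, which set epithelial isoforms, differed: Esrp1 lay inside the bud range at 10.47 against 9.27 to 10.86, and Esrp2 was called higher at 9.41 against 6.32 to 6.68. The RNA-binding gene Rbm47 had 9.91 against 5.97 to 6.40, the ETS factor gene Ehf 9.49 against 5.77 to 6.63 and the inflammation-responsive factor gene Cebpb 10.01 against 6.04 to 7.39. Of 4 Ehf probe sets 1 went the other way, at 4.53 in mIMCD-3 against 5.03 to 5.83. Together 6 of 20 members were called higher and 2 lower. Ovol2, an epithelial transcription factor gene, was below the bud at 5.84 against 6.13 to 7.91, not called. The lower ones were Elf5, an ETS factor at 4.67 against 6.72 to 7.23, and Id1, an inhibitor of basic helix-loop-helix factors, at 8.21 against 9.77 to 11.07. Among 11 genes of membrane proteases, their inhibitors and the calpain family (Capn6), 2 were called higher and 3 lower. Tmprss2 (gap 1.86) and St14, which encodes matriptase (9.92 against 7.63 to 8.74), were higher, and Prss8, the prostasin that activates the epithelial sodium channel, was lower at 6.49 against 8.35 to 9.23, with Hpn at 5.17 against 6.43 to 7.57 and Capn6 at 5.91 against 10.15 to 10.72.

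**Figure D2:**
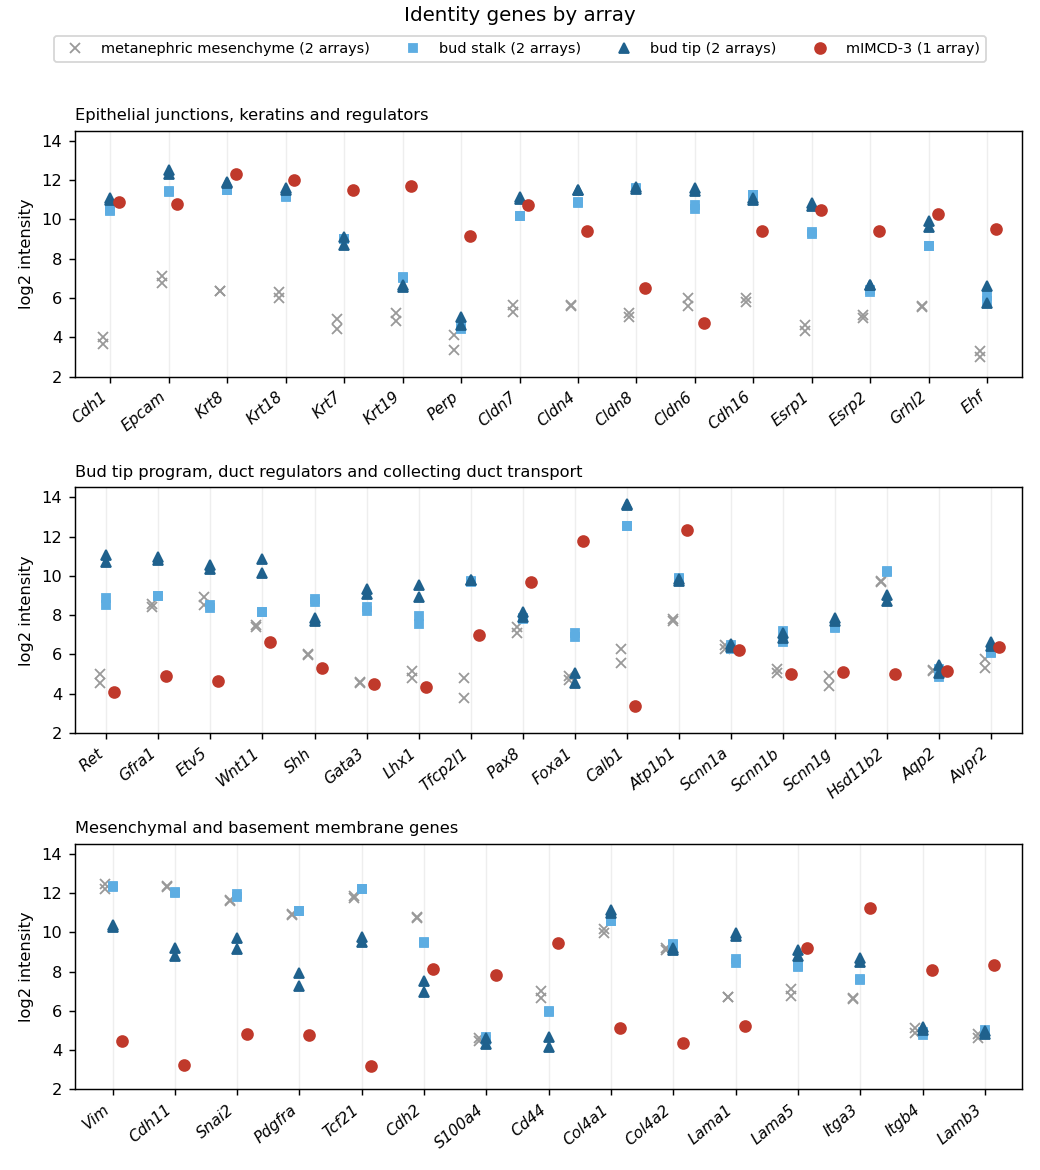
Log2 intensity (y axis) of selected identity genes (x axis) on every array: crosses for the 2 mesenchyme arrays, squares for the 2 stalk arrays, triangles for the 2 tip arrays and circles for mIMCD-3; values compare arrays within a gene, not genes with each other. Cdh1, Cldn7 and Aqp2 of mIMCD-3 sit within the bud, Ret, Gata3 and Vim lie far below it, and Krt19, Foxa1 and Itga3 far above it.

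The tip program of the bud was low in mIMCD-3. Of 21 measured tip genes 13 were called lower and 0 higher, with a median difference of -2.17 against -0.05 over all genes. All 21 stood below every bud array, against 37.1% of all genes. Ret, the receptor through which GDNF drives branching, had 4.12 in mIMCD-3, 8.89 and 8.52 in stalk, and 11.07 and 10.70 in tip. Mesenchyme was at 4.56 and 5.0, so that mIMCD-3 was no brighter than tissue without bud. Gfra1, the co-receptor that binds GDNF, had 4.91 in mIMCD-3, 8.96 and 8.97 in stalk, and 10.96 and 10.81 in tip. Targets downstream of Ret followed. The ETS factor gene Etv5 stood at 4.62 in mIMCD-3 against 8.36 to 10.54 in the bud and Etv4 at 6.12 against 7.46 to 9.62. Dusp6, a phosphatase that dampens ERK, had 8.01 against 10.56 to 11.59, and Spry1, a brake on Ret signalling, 9.63 against 10.04 to 11.56, which was below the bud by 0.41 and not called. The chemokine receptor gene Cxcr4 was at 3.46 against 6.75 to 9.0, the transporter gene Slco4c1 at 3.12 against 5.30 to 9.11 and the transcription factor gene Sox9 at 6.35 against 8.75 to 9.52. Wnt11, a tip ligand, stood at 6.65 in mIMCD-3, 8.17 and 8.15 in stalk, and 10.84 and 10.17 in tip; its gap of 1.5 is to the stalk and the distance to the tips is larger.

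Among ligands, receptors and feedback genes of the branching pathways, lower calls outnumbered higher ones, and most members were not called. In the Wnt list 15 of 42 members were called lower and 3 higher, with a median of -1.47. Among ligands, Wnt9b, which induces nephrons in the neighbouring mesenchyme, had 5.22 in mIMCD-3, 8.26 and 8.35 in stalk, and 9.06 and 8.71 in tip. Wnt5a stood at 3.31 against 6.62 to 7.42 and Wnt4 at 6.56 against 7.86 to 8.76. Wnt7b, the stalk ligand that orients the growth of the medullary collecting duct, went the other way with 10.93 in mIMCD-3, 7.89 and 8.10 in stalk, and 7.82 and 8.02 in tip. Wnt10a was also higher at 7.65 against 4.83 to 5.54. The receptor genes Fzd3, Fzd4 and Fzd7 were lower, at 6.09 against 9.21 to 9.64, 5.91 against 8.65 to 9.17 and 7.18 against 9.03 to 10.38, whereas Fzd6 was not called at 9.76 against 8.46 to 9.52. Axin2 and Lef1, feedback and effector genes of beta-catenin signalling, had 5.64 against 7.47 to 8.46 and 6.07 against 7.66 to 7.82. The secreted antagonists Sfrp2, Sfrp1 and Dkk1 had 3.76 against 8.75 to 11.40, 4.88 against 7.16 to 9.12 and 4.58 against 7.67 to 8.09.

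Of the FGF, BMP, hedgehog and Notch genes, 14 of 44 were called lower and 0 higher, with a median of -0.68. Shh, the ligand by which the stalk patterns smooth muscle of the ureter, stood at 5.32 in mIMCD-3, 8.83 and 8.69 in stalk, and 7.85 and 7.72 in tip. The FGF receptor genes Fgfr1 and Fgfr2 were at 4.52 against 8.26 to 8.74 and 9.07 against 10.72 to 11.02. Fgfr2, which the bud needs for branching, thus stayed bright in the line although it was called lower. The BMP ligand gene Bmp7 had 6.48 against 7.93 to 9.15, and the BMP-responsive Id3 7.71 against 11.77 to 12.18. The Notch ligand gene Jag1 had 7.06 against 9.5 to 10.10 and the receptor gene Notch3 6.52 against 9.19 to 9.46, while Notch2 was within the bud range at 10.08 against 9.15 to 10.21. Among receptors of other growth factors Met, which binds HGF, was called higher at 10.84 in mIMCD-3, 7.85 and 7.77 in stalk, and 9.48 and 9.10 in tip. The TGF-beta receptor genes split, with Tgfbr2 at 11.09 against 8.38 to 8.89 and Tgfbr1 at 8.99 against 11.04 to 11.45. In that list of growth factor receptors and the IGF axis, 6 of 36 were called higher and 9 lower. The IGF-binding protein genes Igfbp2, Igfbp5 and Igfbp3 had 4.23 against 10.91 to 12.39, 3.25 against 8.20 to 9.92 and 4.61 against 6.96 to 8.17, and Igfbp7 was higher at 9.30 against 6.96 to 7.75.

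Retinoic acid genes were low as well, with 8 of 17 called lower and 1 higher. Aldh1a3 and Aldh1a1, enzymes that make retinoic acid, stood at 3.72 against 7.90 to 9.91 and 4.67 against 7.60 to 9.87, with mesenchyme at 4.0 and 4.09 for Aldh1a3. The receptor gene Rarb, itself a target of retinoic acid, had 4.02 against 8.48 to 9.72. Crabp2 and Stra6, which bind and import retinoids, had 6.06 against 9.71 to 10.35 and 5.26 against 7.98 to 8.28. The member called higher was Rbp4, the secreted carrier of retinol, at 10.91 in mIMCD-3, 5.0 and 5.37 in stalk, and 5.50 and 5.71 in tip.

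Transcription factors of the nephric duct lineage divided. Gata3, required in the duct for Ret expression, stood at 4.48 in mIMCD-3, 8.40 and 8.20 in stalk, and 9.32 and 9.09 in tip, level with mesenchyme at 4.55 and 4.59. Lhx1 had 4.36 against 7.57 to 9.51, Tfap2b 4.60 against 7.34 to 9.21, Sall4 4.55 against 7.01 to 8.47 and Prdm16 3.49 against 8.65 to 9.97. Tfcp2l1, a regulator of collecting duct cell types, was lower than the bud but above mesenchyme, with 7.0 in mIMCD-3 against 9.71 to 9.8 in the bud and 4.78 and 3.78 in mesenchyme. Of its 3 probe sets 1 had the opposite sign. Against these, Pax8, a duct and nephron factor, was called higher with 9.70 in mIMCD-3, 7.88 and 7.80 in stalk, and 8.14 and 7.89 in tip, and so was Irx3 at 10.30 against 7.03 to 7.88. Emx2 and Sim1, both duct factors, were not called, at 9.44 against 9.84 to 11.19 and 9.09 against 7.97 to 9.90. In all, 9 of 23 were called lower and 3 higher. Foxa1, a pioneer factor of stalk and urothelium, had a large gap upward, with 11.80 in mIMCD-3, 7.09 and 6.86 in stalk, and 4.57 and 5.04 in tip. Tip was at the level of mesenchyme (4.90 and 4.72), stalk between, and mIMCD-3 at the top.

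Hox genes, which carry position along the body axis, were mostly not called. Of 33 measured, 3 were called higher and 7 lower, against 6.79% and 6.23% of all genes. All but 1 of the lower ones belonged to the Hoxd cluster: Hoxd9 stood at 5.73 against 10.39 to 11.06, Hoxd8 at 6.33 against 10.25 to 11.23, Hoxd1 at 3.64 against 7.45 to 8.61, Hoxd10 at 3.92 against 7.22 to 10.02, Hoxd3 at 4.55 against 7.73 to 8.32 and Hoxd11 at 3.91 against 5.56 to 8.30. The remaining one was Hoxc10 at 4.22 against 6.25 to 8.99. The 3 higher ones were Hoxa7 (8.5 against 7.10 to 7.28), Hoxb9 (9.63 against 7.97 to 8.25) and Hoxb13 (8.07 against 4.16 to 4.32), the last dim in tip, stalk and mesenchyme alike. Hoxa9 and Hoxa10, at 11.80 against 8.33 to 10.83 and 9.05 against 7.23 to 10.13, were not called.

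Water channels and the vasopressin receptor of adult collecting duct were not high in the line. Aqp2, the vasopressin-regulated water channel of principal cells, stood at 5.15 in mIMCD-3, 4.88 and 5.25 in stalk, and 5.07 and 5.49 in tip, inside the bud range. Avpr2, the vasopressin receptor, had 6.38 in mIMCD-3, 6.09 and 6.12 in stalk, and 6.43 and 6.62 in tip, also inside it. Aqp3 and Aqp4 had 5.13 against 5.47 to 5.94 and 5.25 against 5.81 to 6.32, just below the bud. Of 22 water and urea genes 2 were called higher and 2 lower, close to the 6.79% and 6.23% of all genes. The prostaglandin receptor gene Ptger4 was higher at 9.24 against 5.50 to 7.79 and so was endothelin, Edn1, at 7.17 against 5.89 to 5.97. Its receptor gene Ednrb was lower at 3.58 in mIMCD-3, 10.01 and 10.03 in stalk, and 8.73 and 8.42 in tip.

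For sodium and potassium, 4 of 20 members were called higher and 6 lower. The epithelial sodium channel split by subunit relative to the bud: the alpha subunit gene Scnn1a was 0.08 below the bud at 6.22 against 6.30 to 6.55, while beta and gamma were called lower. Scnn1b had 5.03 in mIMCD-3, 7.18 and 6.64 in stalk, and 7.10 and 6.83 in tip and Scnn1g 5.12 in mIMCD-3, 7.41 and 7.33 in stalk, and 7.88 and 7.72 in tip. Both were at the level of mesenchyme (5.26 and 5.04 for Scnn1b). Hsd11b2, the enzyme that shields the mineralocorticoid receptor from glucocorticoids, stood at 5.0 in mIMCD-3, 10.21 and 10.23 in stalk, and 9.02 and 8.70 in tip. The receptor genes were higher, Nr3c1 for glucocorticoids at 9.41 against 6.66 to 8.19 and Nr3c2 for mineralocorticoids at 5.69 against 4.10 to 4.36. Atp1b1, the beta subunit of the sodium pump, was bright at 12.32 in mIMCD-3, 9.88 and 9.86 in stalk, and 9.84 and 9.76 in tip, and the kinase gene Wnk4 had 8.13 against 5.73 to 6.15. The kinase gene Stk39, which acts on cation chloride cotransporters, was lower at 5.75 against 7.62 to 7.86.

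Among 16 intercalated cell genes 3 were called lower and 0 higher: Kit at 4.01 against 8.54 to 8.78, the anion exchanger gene Slc26a7 at 2.82 against 4.15 to 8.44, and the ammonia channel gene Rhcg at 4.67 against 5.87 to 6.82. Slc26a7 was brighter in stalk than in tip and near or above the stalk level in mesenchyme, so its signal need not come from duct cells. The defining genes Foxi1, Slc4a1 and Atp6v1b1 were under the median probe set of the mIMCD-3 array, at 4.52, 5.01 and 4.05, and were not called. Of 19 markers of other nephron segments 13 were under the median probe set of the mIMCD-3 array. Their summed linear intensity was 910.5 in mIMCD-3 and 857.5 to 1022.4 in the bud. Calls among them were few, as over all genes (6.79% higher and 6.23% lower). Only Cdh6, a cadherin of early proximal tubule, was called higher, at 8.21 against 6.0 to 6.6, and only Wt1, of podocytes and progenitors, lower, at 5.11 against 6.25 to 7.85. Among cilium and cystic disease genes 2 of 24 were called higher and 1 lower, against 6.79% and 6.23% of all genes. Bicc1, an RNA-binding protein whose loss gives kidney cysts, stood at 12.74 in mIMCD-3, 10.15 and 10.08 in stalk, and 10.15 and 9.98 in tip, Tulp3 at 9.37 against 8.0 to 8.26 and the transition zone gene Mks1 at 5.56 against 7.22 to 7.43. The polycystin gene Pkd1 had 6.41 against 5.89 to 6.33 and Pkhd1 7.83 against 6.66 to 7.5, neither called.

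Genes of osmoprotection and small heat shock proteins were high. Of 17 measured, 9 were called higher and 1 lower, and the median difference was 1.40. Besides Cryab, the small heat shock gene Hspb1 had 12.20 in mIMCD-3, 9.17 and 9.20 in stalk, and 8.83 and 8.76 in tip. The chaperone genes Hspa4l and Hspa1b stood at 9.72 against 5.75 to 6.37 and 11.12 against 8.02 to 9.11, and the co-chaperone gene Bag3 at 9.01 against 6.68 to 7.71. Osmolyte transporters were higher too: Slc5a3 for inositol at 10.58 against 8.69 to 9.09 and Slc6a6 for taurine at 10.39 against 8.51 to 8.88. Of 4 Slc6a6 probe sets 1 had the opposite sign. The betaine transporter gene Slc6a12 was dim on all arrays, at 3.80 against 4.09 to 4.35, and Nfat5, the transcription factor of the hypertonic response, was 0.52 above the bud at 9.0 against 8.12 to 8.48, not called. The one member called lower was Gpcpd1, an enzyme that breaks down the osmolyte glycerophosphocholine, at 6.75 against 7.84 to 8.28.

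Mesenchymal and matrix genes were among the lowest in mIMCD-3. Vim, the intermediate filament vimentin, had 4.47 in mIMCD-3, 12.34 and 12.29 in stalk, and 10.35 and 10.26 in tip. Cdh11, a mesenchymal cadherin, had 3.24 in mIMCD-3, 12.03 and 12.04 in stalk, and 9.22 and 8.81 in tip. Snai2 stood at 4.83 against 9.16 to 11.96, Pdgfra at 4.75 against 7.26 to 11.10, Pdgfrb at 2.80 against 7.36 to 9.60 and Tgfbi at 3.39 against 7.49 to 11.04. In all 6 of these genes the stalk arrays were brighter than the tip arrays, and mesenchyme was close to stalk. Of the mesenchymal list, 11 of 26 members were called lower and 3 higher, and in all 11 lower ones both stalk arrays exceeded both tip arrays. That was so in 566 of all 1133 genes called lower. In bulk samples fewer cells of a type and less RNA per cell cannot be told apart. Cdh2, N-cadherin, lay between the 2 ends of the bud, at 8.15 in mIMCD-3, 9.51 and 9.44 in stalk, and 7.52 and 6.95 in tip. The 3 higher members were S100a4 at 7.85 against 4.33 to 4.66, Cd44, the hyaluronan receptor, at 9.46 against 4.16 to 5.98, and Tgfb1 at 7.48 against 5.34 to 5.89. Of 4 Cd44 probe sets 1, and of 2 Tgfb1 probe sets 1, had the opposite sign.

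Markers of several other cell types were brighter on the bud arrays than in mIMCD-3. Summed linear intensity over 15 renal stroma markers was 1671.6 in mIMCD-3, 3106.3 and 3878.4 in tip, and 23218.3 and 24192.8 in stalk. For 16 endothelial markers it was 785.5 in mIMCD-3 and 1713.6 to 3408.2 in the bud, with 11 called lower and 0 higher. For 8 erythroid markers it was 252.3 against 9724.8 to 18195.0. For 11 neuronal and neural crest markers, Ret among them, it was 279.3 against 1054.8 to 2617.0. For 13 macrophage markers it was 449.7 against 522.6 to 882.7, and for 15 nephron progenitor markers 3346.3 against 2360.6 to 5457.9. Bright members, such as the bud tip gene Ret and the globin gene Hbb-y, weigh most in such sums. Called lower were 3 of the erythroid, 2 of the neuronal, 1 of the macrophage and 6 of the progenitor markers, with 0 higher. Of the stroma markers 9 were called lower and 1 higher. Smooth muscle markers summed to 872.2 against 460.3 to 614.6, with only Smtn called (9.12 against 6.25 to 6.6). In mIMCD-3 the stromal Tcf21 and Col3a1 were at 3.20 and 4.70, and the endothelial Pecam1 and Cdh5 at 4.54 and 4.13, all under the median probe set of 5.40. The part of these cell types in the lower calls was not tested.

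Of 35 collagen and matrix genes 17 were called lower and 2 higher, with a median of -2.19. Fibrillar collagens such as Col3a1 (4.70 against 9.12 to 12.30) and Col1a2 (5.19 against 8.48 to 11.53) had the stalk-rich pattern of the mesenchymal genes. The type IV collagen genes Col4a1 and Col4a2 were bright at both ends of the bud. Col4a1 and Col4a2, the type IV collagen chains of every basement membrane, stood at 5.14 in mIMCD-3, 10.57 and 10.57 in stalk, and 11.11 and 11 in tip, and at 4.38 in mIMCD-3, 9.43 and 9.37 in stalk, and 9.19 and 9.09 in tip, respectively. Frem2, a bridge between epithelium and its basement membrane that is strongest in tip, had 3.85 in mIMCD-3, 9.52 and 9.38 in stalk, and 11.25 and 11.13 in tip. The alternative chain gene Col4a4 was called higher at 6.89 against 3.53 to 3.98, and the other higher member was the matrix gene Tnc. Col18a1 was not called at 10.77 against 10.52 to 10.65.

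Laminins and integrins differed by chain, with 8 of 23 called higher and 4 lower. Lama1, the laminin chain of embryonic epithelium, had 5.21 in mIMCD-3, 8.63 and 8.44 in stalk, and 9.98 and 9.83 in tip, and Lama5, the chain of mature basement membrane, stood at 9.18 against 8.23 to 9.08, not called. Lamb3 and Lama3, chains of the laminin found under stratified epithelia, were higher at 8.32 against 4.81 to 5.04 and 5.98 against 4.21 to 4.70. Their receptor subunits Itga3 and Itgb4 were higher too, Itga3 with 11.25 in mIMCD-3, 7.61 and 7.59 in stalk, and 8.68 and 8.47 in tip and Itgb4 with 8.08 against 4.75 to 5.19. Itgb6, Itgb8 and Itgb5, partners of the alpha v subunit, had 7.02 against 4.06 to 4.44, 8.77 against 5.79 to 6.41 and 10.64 against 8.53 to 8.76. Lower were Itga8, the nephronectin receptor of the mesenchyme, at 3.78 against 6.24 to 9.58, Lama4 at 6.10 against 7.2 to 8.37 and Itga6 at 7.92 against 8.97 to 9.81, of whose 2 probe sets 1 had the opposite sign.

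Annexins and S100 proteins, calcium-binding partners at the membrane, stood high as a family. Of 24 measured, 11 were called higher and 0 lower, with a median of 1.24. Above every bud array were 16, against 33.0% of all genes. Anxa1 had 13.55 in mIMCD-3, 7.64 and 7.73 in stalk, and 7.35 and 6.89 in tip, a gap of 5.83. S100a6 had 13.50 in mIMCD-3, 7.04 and 6.91 in stalk, and 8.18 and 7.77 in tip. Anxa3 stood at 12.60 against 6.89 to 8.57, Anxa4 at 10.70 against 7.60 to 8.06, Anxa5 at 11.81 against 10.25 to 10.58, S100a1 at 9.51 against 6.59 to 6.78 and S100a14 at 6.86 against 3.92 to 4.64. Anxa2 and its partner S100a10 were above all 4 bud arrays without a call, at 12.27 against 9.27 to 11.40 and 10.52 against 7.21 to 9.84. The galectin gene Lgals3 had 12.45 in mIMCD-3, 7.19 and 7.19 in stalk, and 6.52 and 6.46 in tip. In the actin list 5 of 33 were called higher and 3 lower. Besides Fscn1, the contractile genes Myl9 and Tpm2 were lower at 4.57 against 6.02 to 9.12 and 6.65 against 7.92 to 10.73, with stalk above tip in both. Msn, a linker of actin to membrane, stood at 11.19 against 8.22 to 9.31 and Ccn2, another YAP target, at 10.15 against 7.65 to 8.16, whereas Ccn1 was 0.41 below the bud at 11.43 against 11.85 to 12.28. Actb was 0.20 above it at 14.11 against 13.77 to 13.92.

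Genes of proliferation were, like most genes, mostly not called, while D cyclins were called lower and INK4 inhibitors higher. Of 37 cell cycle and replication genes 2 were called higher and 3 lower, against 6.79% and 6.23% of all genes. That balance turned after centring and against the stalk arrays alone, with 4 higher and 3 lower in each. The median was 0.34, and 24 members stood above every bud array, against 33.0% of all genes. Mki67, a mark of cycling cells, was at 11.26 against 10.80 to 10.96 and Pcna at 12.81 against 12.62 to 12.92. Ccna2 and Cdc45 were called higher at 11.72 against 10.18 to 10.40 and 9.67 against 7.84 to 8.19. All 3 members called lower were D cyclins, which drive entry into the cycle. Ccnd2 had 4.86 in mIMCD-3, 12.04 and 12.11 in stalk, and 11.86 and 11.87 in tip, with all 7 of its probe sets called lower. Ccnd1 had 8.10 in mIMCD-3, 11.14 and 11.04 in stalk, and 11.46 and 11.25 in tip, and Ccnd3 8.54 against 9.79 to 10.19. Of 3 Ccnd3 probe sets only that one was called: another read 6.07 against 6.43 to 6.75, and the dimmest lay inside the bud range. The INK4 inhibitors, which bind the kinases that partner D cyclins, went the other way. Cdkn2a had 9.5 in mIMCD-3, 3.89 and 3.91 in stalk, and 3.96 and 3.88 in tip. Cdkn2b and Cdkn2c stood at 9.31 in mIMCD-3 against 3.78 to 4.60 in the bud and 11.11 in mIMCD-3 against 5.86 to 6.33 in the bud. Of 23 p53 targets and cyclin kinase inhibitors 8 were called higher and 1 lower. Cdkn1a, which encodes p21, was higher at 10.27 against 8.62 to 8.97, the pro-apoptotic Pmaip1 at 8.55 against 3.68 to 4.58 and Gadd45b at 10.49 against 7.06 to 7.29. Cdkn1b was 0.35 above the bud at 8.55 against 7.84 to 8.20. The only member called lower was the imprinted Cdkn1c, at 8.29 against 10.29 to 11.78. Other p53 targets, such as Mdm2 (9.48 against 9.08 to 9.25) and Bbc3 (7.09 against 7.18 to 7.53), were not called.

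The interferon list had the largest share of higher calls. Of 45 measured members 25 were called higher and 1 lower, and the median difference was 1.44. Above every bud array stood 39, against 33.0% of all genes. Effectors of the antiviral state led. Beside Ifit3, Ifit1 had 8.30 in mIMCD-3, 3.46 and 3.41 in stalk, and 3.65 and 3.77 in tip, and Ifit2 10.45 in mIMCD-3, 6.54 and 6.59 in stalk, and 6.51 and 6.08 in tip. Ifi35 stood at 9.49 against 5.75 to 6.26, the restriction factor gene Bst2 at 8.63 against 5.85 to 6.08 and the RNA sensor gene Ifih1 at 8.66 against 6.06 to 6.53. The guanylate-binding and immunity-related GTPase genes Gbp2 and Irgm1 had 6.74 against 3.44 to 3.64 and 9.61 against 6.23 to 6.49. In tip, stalk and mesenchyme none of these exceeded 6.65. Several class I antigen presentation genes were called higher. H2-D1 had 11.11 in mIMCD-3, 7.75 and 7.68 in stalk, and 7.55 and 7.27 in tip, H2-K1 11.14 against 7.79 to 7.99, the light chain gene B2m 11.42 against 9.39 to 10.19, Tapbp 9.76 against 7.07 to 7.5 and the immunoproteasome gene Psmb8 6.96 against 4.56 to 5.0. The peptide transporter gene Tap2 was higher at 6.64 against 5.30 to 5.64, while its partner Tap1 (6.22 against 5.15 to 5.56) and the immunoproteasome genes Psmb9 (5.30 against 4.67 to 5.45) and Psmb10 (7.5 against 6.47 to 6.76) were not called. H2-D1 has 9 probe sets, of which 4 were called higher and 1 had the opposite sign, and near-identical class I genes can share its signal. The factor genes Stat2 and Irf7 were higher at 6.81 against 4.66 to 5.60 and 5.82 against 4.16 to 4.78, and Irf9 and Irf1 not called at 7.60 against 6.43 to 6.89 and 8.40 against 7.83 to 8.23. Not every interferon gene took part: Mx2 was at 5.20 against 5.26 to 5.52, Oas2 at 5.83 against 5.58 to 6.08 and Zbp1 at 5.79 against 5.47 to 5.87. The one lower member, Iigp1, had 4.42 in mIMCD-3, 9.87 and 9.85 in stalk, and 6.05 and 5.51 in tip, high in stalk and mesenchyme.

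Since so many members were higher, the 250 bases before their starts were searched for GAAANNGAA, the core of the element that interferon-activated STAT and IRF factors bind, on both strands and with overlaps counted. Sequences are from RefSeq, build GRCm38.p6. It was found in 9 of 20 higher members with a promoter sequence (45.0%), in 4 of 12 others of the list (33.3%) and in 7.51% of 14452 measured genes with a promoter. For a gene with several starts the one with the most matches was taken, so these shares can rise with the number of starts. Over all 32851 promoter windows the share was 7.13%. The 6 with the largest difference among the 9 are printed 5′ to 3′ on the strand of the gene, to show how the matches lie. Capitals mark the matches, and those on the opposite strand appear as the reverse complement.
Ifit3: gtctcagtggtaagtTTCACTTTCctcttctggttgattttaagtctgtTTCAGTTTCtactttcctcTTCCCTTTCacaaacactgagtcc
Ifit1: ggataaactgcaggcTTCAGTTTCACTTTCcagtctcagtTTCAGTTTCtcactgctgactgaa
Irgm1: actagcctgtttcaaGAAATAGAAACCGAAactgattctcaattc
Gbp2: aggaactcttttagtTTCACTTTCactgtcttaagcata
Bst2: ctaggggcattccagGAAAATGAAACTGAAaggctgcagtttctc
Ifih1: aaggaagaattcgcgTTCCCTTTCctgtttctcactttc
Ifit3 and Ifit1 each hold 3 matches, Irgm1 and Bst2 each a pair that overlaps, and Gbp2 and Ifih1 1 each. The capitals begin 155 bases before the start of Ifit3, 109 before Ifit1, 30 before Irgm1, 58 before Gbp2, 130 before Bst2 and 112 before Ifih1. The printed stretches lie at chr19:34583359-34583450 on the plus strand for Ifit3, chr19:34640765-34640828 on the plus strand for Ifit1, chr11:48871421-48871465 on the minus strand for Irgm1, chr3:142620590-142620628 on the plus strand for Gbp2, chr8:71537573-71537617 on the minus strand for Bst2 and chr2:62646344-62646382 on the minus strand for Ifih1. All are upstream of the annotated start. A match describes letters and does not show binding.

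Cytokine, chemokine and NF-kB genes were higher in part, with 14 of 37 called higher and 2 lower. The chemokine genes Cxcl10, Cxcl5 and Ccl28 had 9.08 in mIMCD-3, 4.15 and 3.99 in stalk, and 3.98 and 4.15 in tip for Cxcl10, 8.02 against 2.93 to 3.19 for Cxcl5 and 10.17 against 5.24 to 5.92 for Ccl28. The EGF-family ligand gene Hbegf stood at 10.28 against 6.73 to 7.22, the cytokine gene Lif at 7.27 against 4.03 to 5.12, the iron-binding lipocalin Lcn2, a marker of injured tubule, at 6.87 against 3.49 to 3.89, and the NF-kB subunit gene Relb at 7.39 against 4.17 to 4.89. Il6 and Tnf, inflammatory cytokine genes, lay inside the bud range, at 3.0 against 2.85 to 3.27 and 5.57 against 5.53 to 6.15. The 2 lower members were Cxcl12, the stromal ligand of Cxcr4, at 3.60 in mIMCD-3, 10.96 and 10.99 in stalk, and 8.41 and 8.21 in tip, and Il33 at 3.86 against 6.13 to 7.85.

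**Figure D3:**
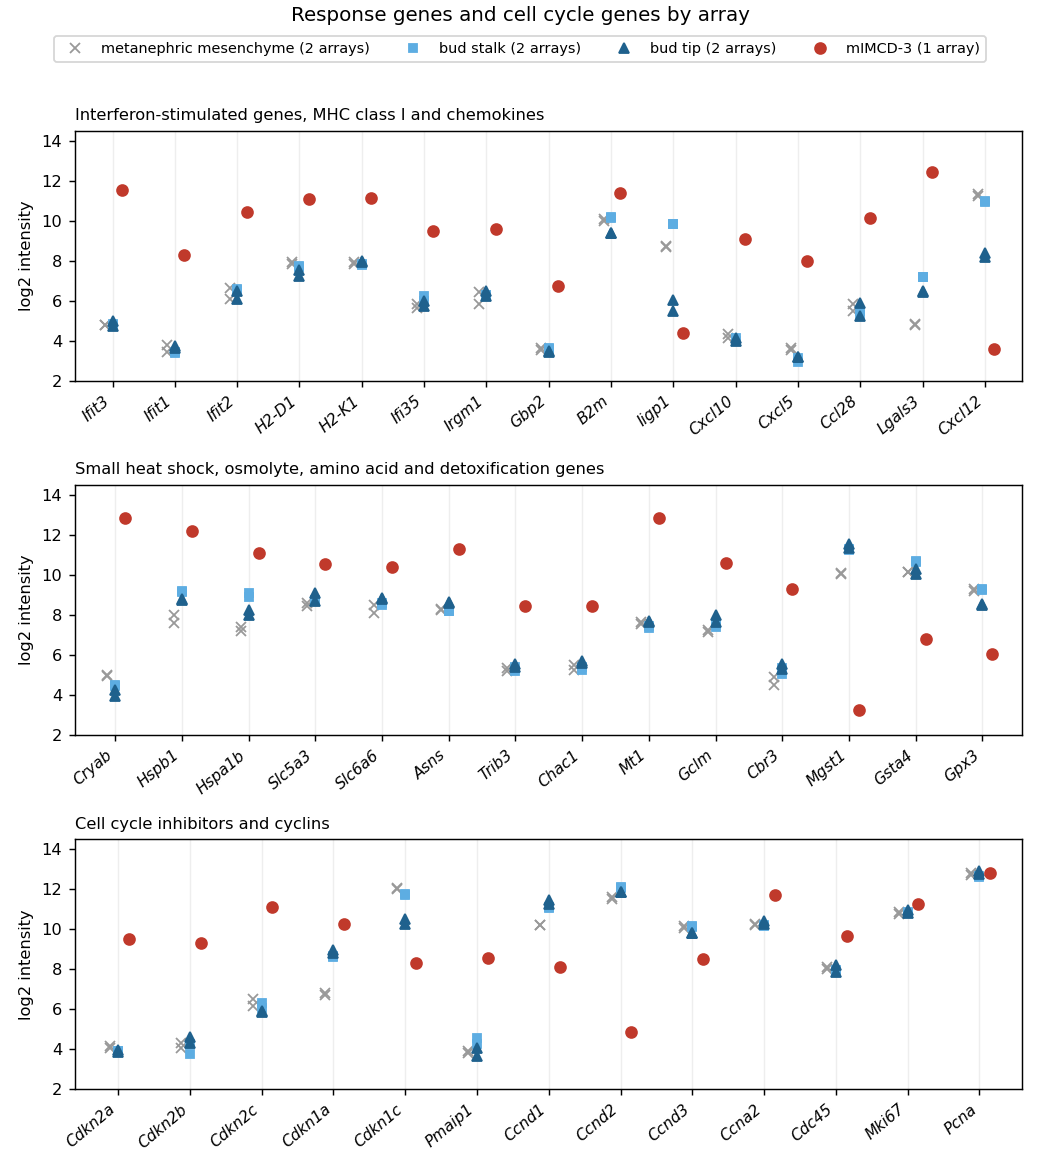
Log2 intensity (y axis) of interferon, stress and cell cycle genes (x axis) on every array, with the symbols as in the plot of identity genes; values compare arrays within a gene. In mIMCD-3 Ifit3, Cryab, Mt1 and the 3 Cdkn2 genes lie far above all tissue arrays, while Cxcl12, Mgst1 and Ccnd2 lie far below them.

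Amino acid and endoplasmic reticulum stress genes were higher in part. Of 28 members 10 were called higher and 2 lower, against 6.79% and 6.23% of all genes. Asns, which makes asparagine, had 11.31 in mIMCD-3, 8.20 and 8.19 in stalk, and 8.64 and 8.60 in tip. Trib3, Chac1 and Ddit3, targets of the ATF4 pathway, stood at 8.47 against 5.18 to 5.57, 8.47 against 5.23 to 5.68 and 9.40 against 7.08 to 7.43. The serine pathway genes Phgdh and Psat1 had 12.56 against 10.29 to 11.01 and 12.01 against 9.83 to 10.37, and the folate enzyme gene Mthfd2 10.72 against 8.14 to 9.02. Atf4 itself (11.31 against 11.01 to 11.22), Atf3 (8.31 against 7.48 to 8.66), the cystine transporter gene Slc7a11 (4.13 against 3.94 to 4.36) and the serine pathway gene Psph (9.26 against 8.75 to 10.25) were not called. The chaperone genes Hspa5 and Hyou1 were 0.59 and 0.62 below the bud, at 12.33 against 12.92 to 13.14 and 9.36 against 9.98 to 10.24, and Pdia4 was called lower at 8.38 against 10.17 to 10.39, as was Ddit4, an inhibitor of mTORC1, at 7.97 against 9.97 to 10.33. Metal and redox genes went both ways, with 9 of 29 called higher and 5 lower. Mt1, a metallothionein, had 12.85 in mIMCD-3, 7.44 and 7.38 in stalk, and 7.64 and 7.68 in tip, and Mt2 stood 0.78 above the bud at 10.24 against 8.70 to 9.46. The glutathione synthesis gene Gclm had 10.62 against 7.39 to 8.03, the carbonyl reductase gene Cbr3 9.31 against 5.07 to 5.57 and the drug exporter gene Abcc1 10.42 against 7.67 to 8.65. Hmox1 and Nqo1, common reporters of the NRF2 pathway, were not called, at 7.62 against 6.76 to 7.69 and 6.05 against 5.51 to 5.80. Besides Mgst1, Gsta4 and Gpx3 were lower at 6.79 against 10.07 to 10.70 and 6.07 against 8.52 to 9.28.

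Genes of embryonic growth were low in mIMCD-3. Of 31 imprinted genes, which are expressed from 1 parental copy and many of which regulate fetal growth, 14 were called lower and 3 higher, with a median of -0.78. Igf2, the fetal growth factor, had 6.89 in mIMCD-3, 12.90 and 12.92 in stalk, and 12.21 and 12.22 in tip. Grb10, a brake on insulin and IGF receptors, had 4.02 in mIMCD-3, 12.30 and 12.31 in stalk, and 12.12 and 11.95 in tip. Ndn, Peg3, Mest and Asb4 stood at 3.85 against 11.53 to 11.82, 4.88 against 11.21 to 12.18, 6.61 against 12.66 to 12.82 and 3.56 against 9.16 to 9.74. Mesenchyme was bright as well, at 9.5 or more in each of these genes. Gnas and Igf2r, also imprinted, were near the bud at 12.58 against 12.62 to 12.86 and 9.18 against 8.51 to 9.33. The higher members were Gatm, Phlda2 and Sgce, at 8.56 against 5.74 to 6.15, 7.26 against 5.58 to 6.02 and 9.60 against 7.96 to 8.51. Of 19 embryonic RNA-binding and stem-cell genes 11 were called lower and 0 higher, with a median of -1.51. Hmga2, a chromatin protein of fetal cells and target of the let-7 microRNAs, had 9.19 in mIMCD-3, 13.02 and 12.98 in stalk, and 13.39 and 13.39 in tip. Trim71 and Igf2bp1, also let-7 targets, had 3.94 against 7.23 to 7.72 and 8.77 against 10.19 to 10.72, and the DNA methyltransferase gene Dnmt3b 6.52 against 8.97 to 10.02. For Mycn the probe set used read 5.57 against 9.25 to 10.17, but another read 9.57 against 7.32 to 7.83, so its direction is unsure. Myc was above the bud by 0.95, at 9.94 against 8.74 to 8.98.

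**Figure D4:**
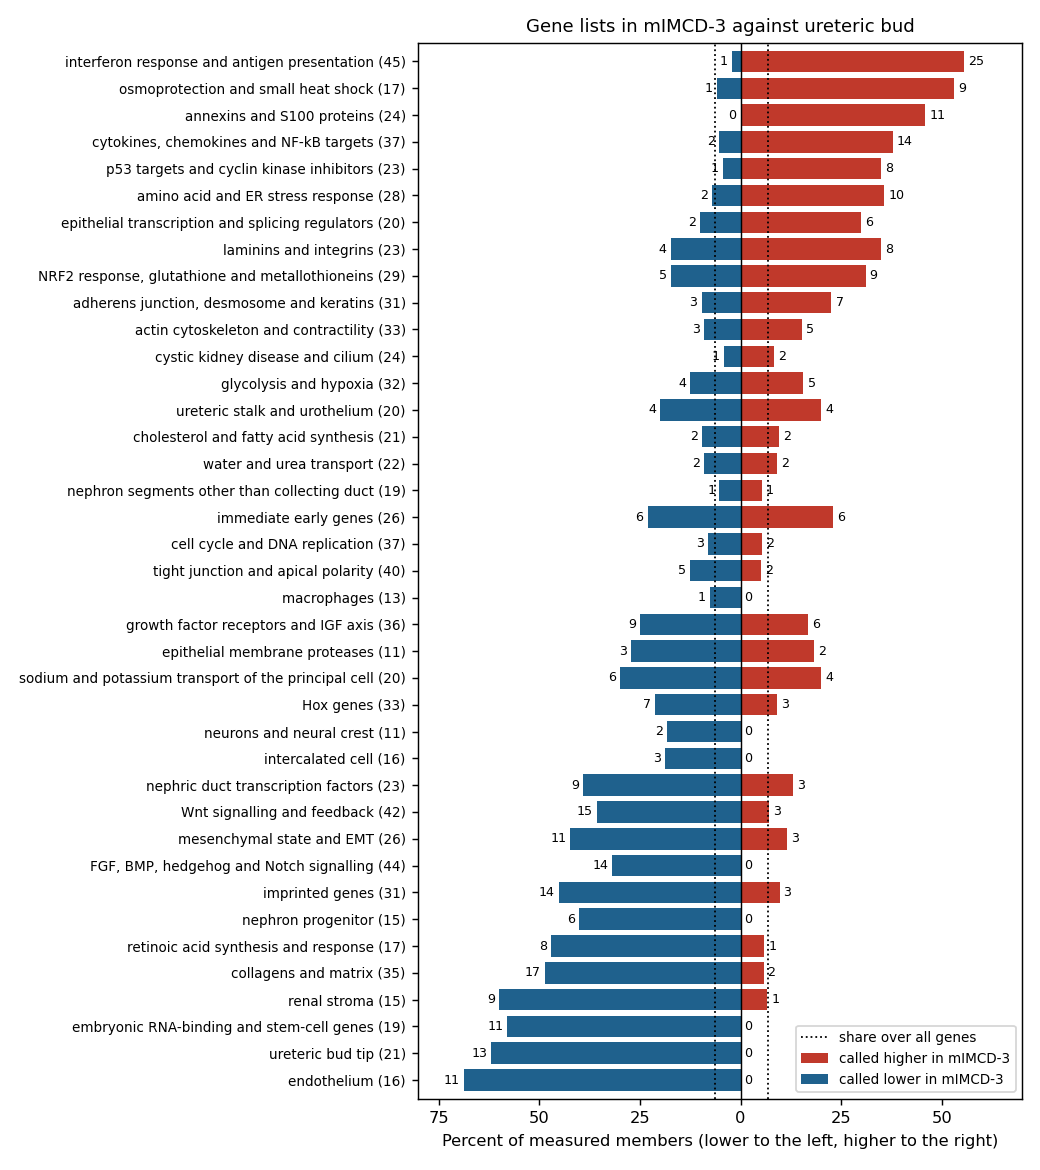
Percent of the measured members (number in brackets) of each gene list with at least 10 measured members that were called higher (red, to the right) or lower (blue, to the left) in mIMCD-3, with counts at the bar ends; dotted lines mark the shares over all genes, 6.79% and 6.23%. Interferon (25 of 45) and osmoprotection genes (9 of 17) reach farthest to the right, and endothelial (11 of 16) and bud tip genes (13 of 21) farthest to the left.

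A last comparison asked how much of what sets the bud apart from mesenchyme the line kept. Bud genes were chosen on the replicate 1 arrays, as those at least 3 units higher in both tip and stalk than in mesenchyme, and read on the replicate 2 arrays. Of 66 such genes mIMCD-3 was near the bud in 35. Near here means no more than 1 unit below the lower of tip and stalk, with no upper limit. mIMCD-3 was within 1 unit of mesenchyme, or below it, in 21 (31.8%) and between in 10 (15.2%). By the rule on all 4 bud arrays, 31 of the 66 were called lower and 8 higher. That rule also reads the replicate 1 arrays that chose the genes. Among those near the bud, Cdh1, Mal2, Krt18, Krt8, Ocln, Mal, Esrp1 and Ripk4 had the largest differences between bud and mesenchyme. Mal2, an apical sorting protein, stood at 9.89 against 8.52 to 10.02 and Ripk4, a kinase of epidermal differentiation, at 10.68 against 8.27 to 9.46. Among those near mesenchyme they were Calb1, Cldn6, Dcdc2a, Pou3f3, ccdc198, Aldh1a3, Map3k21 and Gata3. The microtubule-binding gene Dcdc2a was at 4.53 against 8.62 to 9.46, and Pou3f3, a transcription factor gene, at 3.96 against 9.42 to 10.97. Between both lay Cldn8, Tfcp2l1, Cldn4 and Cdh16, described above. Only 1 gene was 3 units higher in mesenchyme than in both parts of the bud, Meox1, a homeobox gene of nephron progenitors, and mIMCD-3 was on the bud side there, at 5.51 in mIMCD-3 against 6.50 to 7.33 in the bud and 10.31 and 9.88 in mesenchyme.

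**Figure D5:**
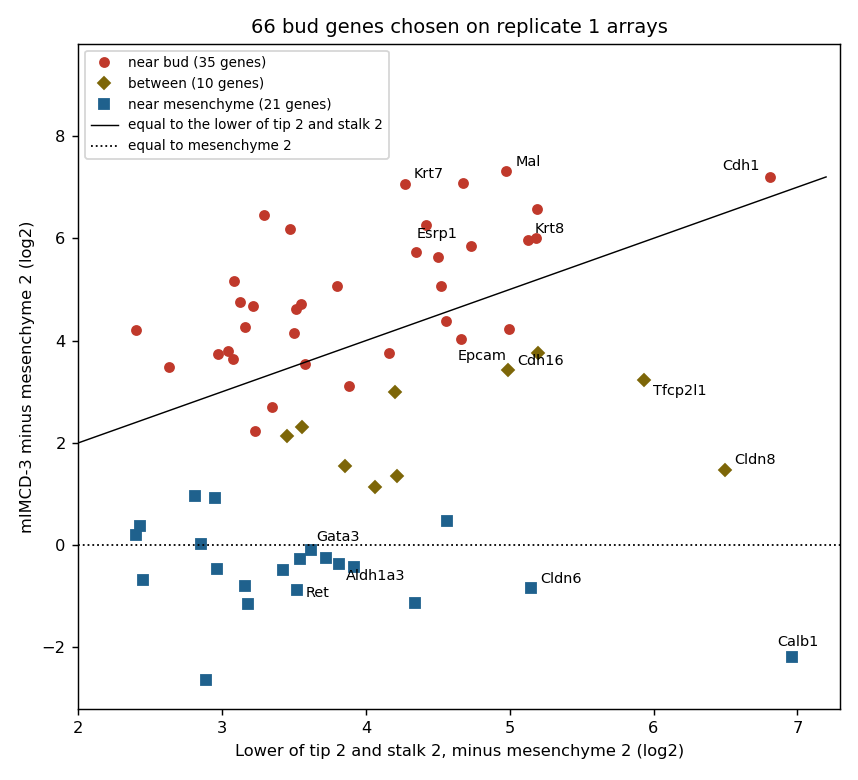
Each point is 1 of 66 bud genes; the x axis gives the lower of tip 2 and stalk 2 minus mesenchyme 2, and the y axis mIMCD-3 minus mesenchyme 2, both in log2 units. Genes near or above the solid line, such as Cdh1 and Krt8, are near or above bud level in mIMCD-3 (35 genes). Those near or below the dotted line, such as Gata3 and Calb1, are near or below mesenchyme level (21 genes).

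Among genes that differed between the tip and stalk arrays, mIMCD-3 was mostly nearer to the dimmer end. Of 25 genes at least 2 units higher in tip than in stalk on replicate 1, mIMCD-3 was nearer to stalk in 23 and to tip in 2, Tmem54 and Macc1. Of 195 genes at least 2 units higher in stalk, mesenchyme 1 was within 1 unit of stalk 1 or above it in 160. In the other 35 it lay farther below stalk 1, which need not mean that it was low. Genes brighter in stalk thus need not mark stalk epithelium. Across genes the stalk arrays had correlations of 0.977 to 0.982 with mesenchyme and 0.968 to 0.978 with tip. mIMCD-3 was nearer to tip in 135 of the 160 (84.4%) and in 32 of the 35 (91.4%). Below all 4 bud arrays were 23 of the 25 tip genes and 138 of the 195 stalk genes. Those 4 include the replicate 1 arrays that chose the genes, so the 37.1% of all genes is no fair scale here. Among the 35, mIMCD-3 was nearer to stalk in 3. They were Foxa1, Synpo, an actin-binding protein, at 7.57 against 4.31 to 7.94, and the sphingosine kinase gene Sphk1 at 10.31 against 5.42 to 7.76. Macc1, a regulator of Met, was at 8.66 in mIMCD-3, 5.44 and 5.34 in stalk, and 7.46 and 6.83 in tip, above both.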

How the data were processed

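RNA was measured on Affymetrix mouse expression arrays from biotinylated cRNA. The authors computed RMA values over all 7 arrays together, per the labels and the submitters' processing notes, and deposited them as linear intensity; the software version is not given in the sources used here. The deposited intensity was turned into log2 here. RMA gives no detection calls and no depth, and the number of arrays limits the precision.

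Of 45101 probe sets, 34945 had exactly 1 gene, 932 had several and 9160 had none here. Symbols were updated through RefSeq (GRCm38.p6), where 99.4% of identifiers were found. Each of 18193 genes was read from its brightest probe set, by the mean of the 5 arrays used. Calls needed a gap of at least 1 log2 unit. No test was made, as mIMCD-3 has 1 array. Bud, tip and stalk genes were chosen on replicate 1 arrays and read on replicate 2 arrays, but the same mIMCD-3 array serves throughout.

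Members and gene lists were chosen with earlier results of these data known. The rule for named genes took the 15 largest gaps at each end, up to 6 called members with the largest differences in each list, up to 8 bud or mesenchyme genes at each end, and a set of marker genes. Not all of these are described, and other list members were chosen after their values were seen. Alternatives were the probe set rule, a filter on dim genes, array centring, the gap, the reference arrays and leaving out each bud array. Python 3.11.15, numpy 2.4.6, pandas 2.3.3 and matplotlib 3.10.9 were used, and the scripts were tested on simulated data.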

Additional observations from a re-analysis of the deposited data

Results flagged for a closer look

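Some genes named above lay between the ends of the bud, so that mIMCD-3 differed from tip and from stalk in opposite directions. The values are mIMCD-3 minus the tip mean and then minus the stalk mean, in log2 units, with 1 mIMCD-3 array and 2 arrays at each end. Below both tip arrays and above both stalk arrays were Avpr2 (-0.15 and 0.28), Cdh1 (-0.15 and 0.41), Cldn7 (-0.37 and 0.55), Esrp1 (-0.30 and 1.16), Psph (-0.86 and 0.47) and Sim1 (-0.65 and 0.97). Above both tip arrays and below both stalk arrays were Atf3 (0.54 and -0.31), Cdh2 (0.91 and -1.33), Hmox1 (0.77 and -0.061), Hoxa10 (1.62 and -1.05), Igf2r (0.56 and -0.14), Notch2 (0.80 and -0.10) and Synpo (3.21 and -0.30). The difference between the contrasts was not tested.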

How the results depend on the processing

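With a gap of at least 2, 289 genes were called higher and 482 lower. Against the stalk arrays only, 1758 were lower. Leaving out each bud array in turn gave 1251 to 1448 higher and 1149 to 1286 lower. With the median over probe sets, 925 of the 1235 higher calls and 873 of the 1133 lower calls stayed. Of 1428 called genes with more than 1 probe set, 1175 had all probe sets of the same sign and 419 all of the same call. Of tip genes, 100% were nearer to stalk when chosen on replicate 2 (7 of 7) or at 1 log2 unit more (1 of 1), and 62.9% (156 of 248) at 1 unit less, a setting added after seeing the data. Of stalk genes with mesenchyme near or above stalk, 91.2% (31 of 34) were nearer to tip at 1 unit more and 75.6% (458 of 606) at 1 unit less. Signs turned for Sc5d (-0.037) and Tfcp2l1 (0.305) with the median over probe sets, and for Cryab (-0.278) with probe sets without a suffix letter. Lists that turned from more lower to more higher calls were cell cycle (4 higher and 3 lower after centring, 4 and 3 against stalk only) and tight junction (14 and 6 against stalk only, from 2 and 5). In the sex-linked list 0 were higher at a gap of 2. The cause was not tested. Choosing mesenchyme genes on replicate 2 or at 1 unit more left no gene. No paired analysis was possible because mIMCD-3 has 1 array, shares no pairing with the bud arrays and enters no test.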

Other observations

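Immediate early genes, which answer within minutes to growth factors or handling, went both ways, with 6 of 26 called higher and 6 lower. Fos and Jun, partners in the AP-1 factor, stood at 8.33 in mIMCD-3, 12.83 and 12.84 in stalk, and 11.36 and 11.22 in tip for Fos and 8.66 in mIMCD-3 against 11.47 to 11.99 in the bud for Jun. Fosb, Egr2 and Nr4a1 were lower too, at 3.30 against 6.36 to 8.13, 5.21 against 8.03 to 8.61 and 7.59 against 9.63 to 10.16. Fosl1, another AP-1 member, was higher at 7.23 against 4.87 to 5.29, as were Nr4a2 at 9.73 against 5.67 to 6.50 and Klf2 at 8.53 against 5.77 to 6.97. A dimmer Nr4a2 probe set lay inside the bud range, at 5.05 against 5.01 to 5.26, and its remaining ones were above the bud. Of 32 glycolysis and hypoxia genes 5 were called higher and 4 lower, against 6.79% and 6.23% of all genes. The hypoxia-induced Ndrg1 and Egln3 had 9.93 against 5.98 to 6.95 and 8.83 against 6.39 to 6.84, and the phosphofructokinase gene Pfkp 8.82 against 5.95 to 6.91. The glucose transporter gene Slc2a3 was lower, with 4.08 in mIMCD-3, 7.77 and 7.85 in stalk, and 9.33 and 9.05 in tip, and the lactate exporter gene Slc16a3 had 4.37 against 6.27 to 6.89. Of 21 cholesterol and fatty acid genes 2 were higher and 2 lower, close to the shares over all genes. Scd1, the desaturase that makes oleate, was higher with a gap of 2.37, and Srebf2, the regulator of cholesterol synthesis, lower at 6.86 against 8.27 to 8.73.

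Of 4 sex-linked genes 2 were called higher and 1 lower. Xist, the RNA of the inactive X chromosome, had 5.63 in mIMCD-3, 11.01 and 11 in stalk, and 10.41 and 10.36 in tip. The Y-linked Uty and Kdm5d were at 7.87 against 5.86 to 6.66 and 8.63 against 6.10 to 7.19. Of 3 Kdm5d probe sets only that one was higher by the rule, and the others were dim, at 3.90 against 3.69 to 4.48 and 5.29 against 4.65 to 5.29. The sex of the tissue pools and of the line is not given in the sources used here, and its part in the other differences was not tested.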
